A study of Mus musculus with 6 samples.

Results

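The genes followed here were 10 mouse genes of the antioxidant and glutathione programme that the transcription factor NRF2 serves: *Nfe2l2*, which encodes NRF2 itself, its inhibitor *Keap1*, and *Nqo1*, *Hmox1*, *Gclm*, *Gclc*, *Slc7a11*, *Txnrd1*, *Srxn1* and *Gsr*. They were found by gene name in the deposited count table, where each of the 10 matched 1 of 51499 loci, and all 10 were among the 14499 loci with enough reads to be tested. RNA-Seq was measured in wild-type (WT) mouse embryonic fibroblasts (MEFs) harvested 72 h after transfection, either with a scrambled siRNA as the control (Scr) or with one that targets *Yme1l*, the gene of a protease of the mitochondrial inner membrane that is named *Yme1l1* in the table. Each group had 3 independent cultures, and both groups were the same WT cells and differed in the siRNA. The labels call the cells 3T3 immortalized, whereas the methods of the study describe MEFs from *Yme1l* loxP/loxP animals that were immortalized with SV40 large T antigen, transduced with Cre recombinase and expanded as clones, the WT clones being those genotyped as *Yme1l* loxP/loxP, and the number of clones behind the cultures is not given in the sources used here. Values are CPM, that is, counts divided by the scaled library total in units of 1e6 reads, and differences are log2 fold changes of Yme1l siRNA over Scr with their standard error (SE). A locus was called higher or lower at a Benjamini-Hochberg adjusted p under 0.05 over all loci tested in edgeR's quasi-likelihood test.

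In unstressed cells KEAP1 binds NRF2 and hands it to a cullin ubiquitin ligase, so that NRF2 is made and destroyed continuously. Oxidants and electrophiles modify cysteines of KEAP1, NRF2 then accumulates, pairs with a small MAF protein and binds antioxidant response elements near its target genes. These targets supply glutathione, reduce oxidized thiols through thioredoxin, detoxify quinones and break down heme. Much of this control acts on NRF2 protein, which RNA-Seq does not measure. Several of the same genes, *Slc7a11* among them, are also targets of ATF4, the transcription factor of the integrated stress response.

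The 6 libraries held 37260605 to 45205207 counts, and loci encoded by mtDNA took 2.08% to 4.11% of them. The targeted gene *Yme1l1* stood at 170, 171 and 171 CPM in the Scr cultures and at 31.6, 23.4 and 45.0 CPM after Yme1l siRNA (log2 fold change −2.36, SE 0.20, adjusted p = 3.87e-05). Most other loci moved as well: 58.0% of the loci tested were called, 28.4% higher and 29.6% lower, and in 65.4% the groups did not overlap. Of 12 fibroblast markers 10 could be tested and 8 of these were called lower, with summed levels of 35600 to 43100 CPM in the Scr cultures against 19500 to 24400 CPM after Yme1l siRNA. *Thy1* had 0 to 1 counts and *Lum* 1 to 15 counts in a library, and *Vim* and *Fbln2* were not called. The 8 leukocyte markers summed to 163 to 180 CPM against 242 to 255 CPM, of which *Csf1r* alone went from a mean of 123 to 205 CPM, while *Cd68* (46.7 and 42.8 CPM) and *Lyz2* (1.34 and 1.05 CPM) were not called, with *Ptprc* and *Itgam* each at 0 to 3 counts and *Adgre1* at 0 counts in every library, which allows up to 3 counts in each. The 5 endothelial markers summed to 3.79 to 4.07 CPM against 5.68 to 7.8 CPM with *Emcn* at 0, and the 6 epithelial markers to 0.0924 to 0.166 CPM against 0.213 to 0.529 CPM. The part of these shifts in the results that follow was not tested, and in bulk RNA fewer cells of a type cannot be told apart from less RNA per cell. The p-values of the quasi-likelihood test weigh the group difference against the spread between cultures of a group. As the number of clones is not given, whether that spread covers differences between clones cannot be told. An exact permutation test of 3 against 3 cannot go below p = 0.1.

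After Yme1l siRNA the 10 genes split instead of moving together. *Slc7a11*, *Gclm*, *Gsr*, *Txnrd1* and *Gclc* were called higher, *Nqo1*, *Srxn1* and *Nfe2l2* were called lower, and *Keap1* and *Hmox1* were not called. In all 8 called genes the lowest culture of the higher group stood above the highest culture of the lower group, and the exact permutation test on CPM gave p = 0.1, its smallest value, for each. As a share, 8 of 10 called is to be read against the 58.0% of all loci called, and 5 higher and 3 lower against 28.4% and 29.6%. Likewise, 8 of 10 without overlap is to be read against 65.4% of all loci. The median log2 fold change was 0.21 over the 10 genes and 0.01 over all loci tested. By absolute change, *Slc7a11* exceeded 95.2% of the loci tested, *Gclm* 90.0%, *Nqo1* 81.4% and *Gsr* 74.4%, whereas *Nfe2l2* exceeded 51.6% and *Gclc* 42.8%.

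**Figure D1:**
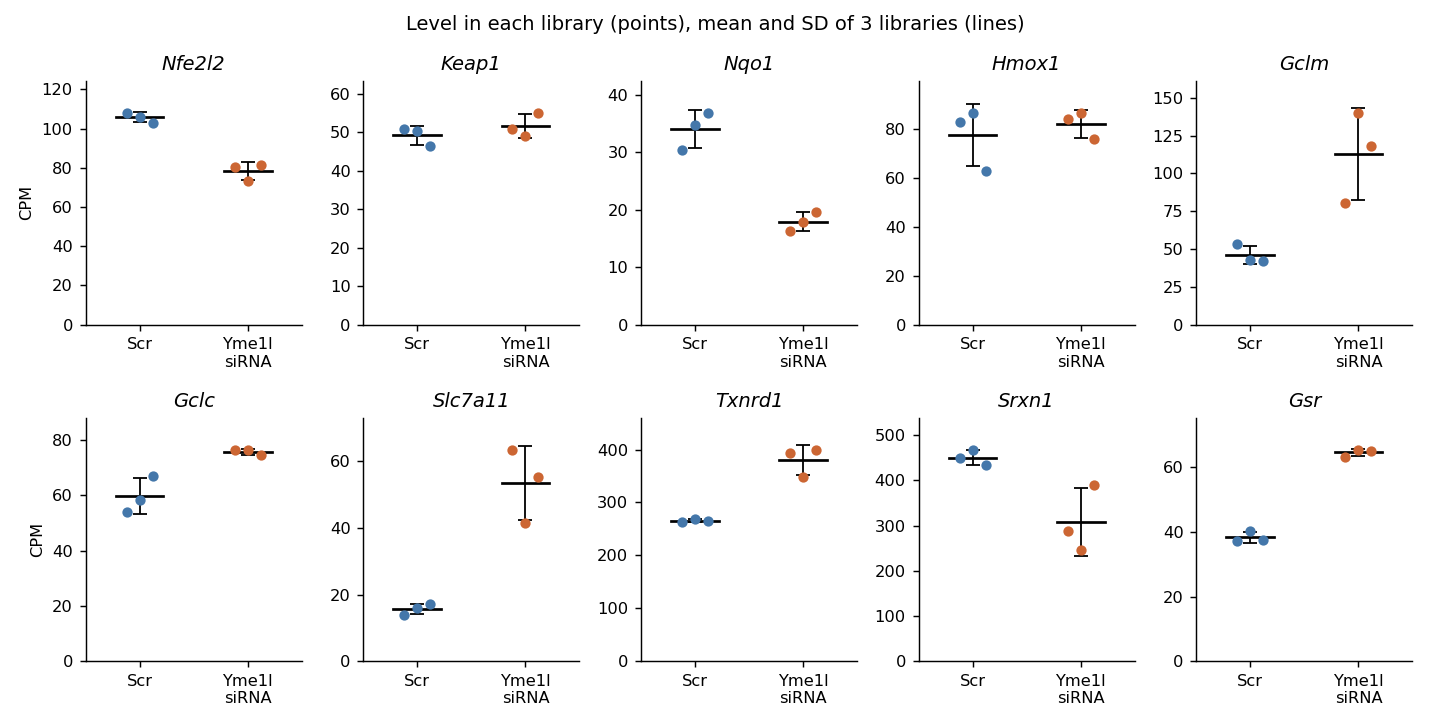
Level of each of the 10 genes in CPM in the 3 Scr and the 3 Yme1l siRNA cultures, 1 panel per gene with its own axis from 0, points for cultures, and a line and bar for mean and SD. The points of the groups overlap only in the panels of *Keap1* and *Hmox1*.

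**Figure D2:**
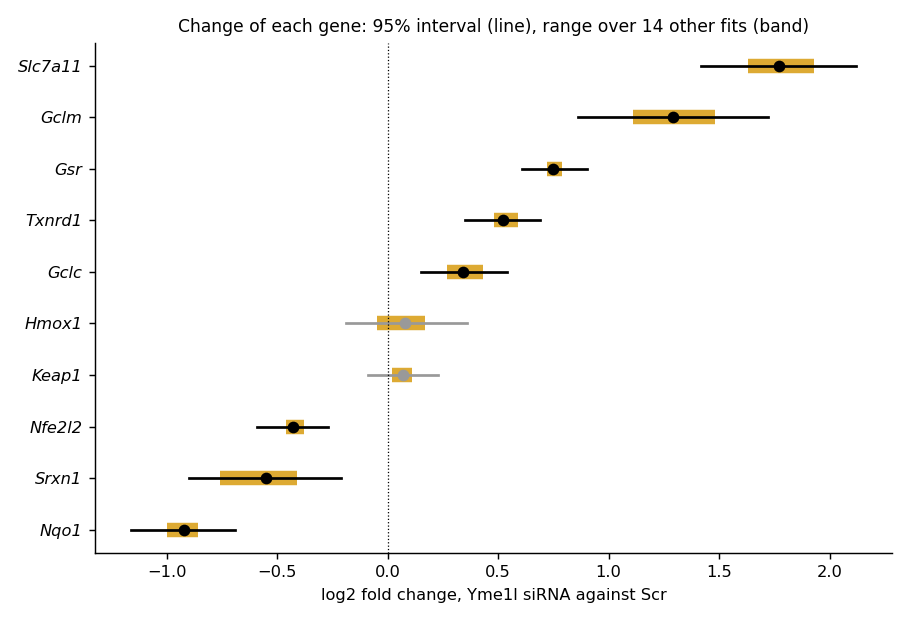
Log2 fold change of Yme1l siRNA over Scr for the 10 genes with 95% confidence intervals (lines) from edgeR's quasi-likelihood test and the range over 14 alternative fits (bands). The intervals run from −1.16 at the low end of *Nqo1* to 2.12 at the high end of *Slc7a11*, and those of *Keap1* and *Hmox1* cross 0.

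Promoter sequence of members that moved is given before their values, because members with a match to the same element moved in opposite directions. RefSeq windows on GRCm38.p6 from 250 bases before to 50 bases after a start were held for 7 of the 10 genes, with 9 windows in all, and none for *Hmox1*, *Gclc* and *Gsr*. Both strands were searched for TGACNNNGC, the core of the antioxidant response element, for the AP-1 motifs TGACTCA and TGAGTCA, which are each other's reverse complement and can overlap that core, and for TGATGNAAT, a C/EBP-ATF element. A shorter form of the last, TGATGNAA, was added after the data were seen. Capitals mark every match, sequences run 5′ to 3′ on the strand of the gene, and position 0 is the start.
Gclm, called higher, chr3:122245307-122245606, plus strand: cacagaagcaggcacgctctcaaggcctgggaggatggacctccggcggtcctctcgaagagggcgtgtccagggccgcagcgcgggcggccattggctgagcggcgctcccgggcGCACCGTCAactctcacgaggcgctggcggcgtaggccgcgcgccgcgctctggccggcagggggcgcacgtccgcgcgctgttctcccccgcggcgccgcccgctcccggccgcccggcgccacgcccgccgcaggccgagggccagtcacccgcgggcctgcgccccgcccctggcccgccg
Txnrd1, second of 3 windows, called higher, chr10:82858956-82859255, plus strand: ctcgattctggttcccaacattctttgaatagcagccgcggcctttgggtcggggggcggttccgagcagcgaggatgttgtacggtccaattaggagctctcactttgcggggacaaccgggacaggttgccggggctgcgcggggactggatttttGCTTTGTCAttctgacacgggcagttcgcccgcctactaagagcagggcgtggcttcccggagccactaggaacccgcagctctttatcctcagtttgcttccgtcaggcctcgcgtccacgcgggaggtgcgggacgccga
Slc7a11, called higher, chr3:50443564-50443863, minus strand: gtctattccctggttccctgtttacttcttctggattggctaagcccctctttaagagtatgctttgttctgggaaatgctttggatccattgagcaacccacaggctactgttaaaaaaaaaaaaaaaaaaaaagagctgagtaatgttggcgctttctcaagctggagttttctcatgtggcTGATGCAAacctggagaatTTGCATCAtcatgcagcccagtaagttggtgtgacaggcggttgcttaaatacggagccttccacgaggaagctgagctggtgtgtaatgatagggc
Srxn1, called lower, chr2:152105274-152105573, plus strand: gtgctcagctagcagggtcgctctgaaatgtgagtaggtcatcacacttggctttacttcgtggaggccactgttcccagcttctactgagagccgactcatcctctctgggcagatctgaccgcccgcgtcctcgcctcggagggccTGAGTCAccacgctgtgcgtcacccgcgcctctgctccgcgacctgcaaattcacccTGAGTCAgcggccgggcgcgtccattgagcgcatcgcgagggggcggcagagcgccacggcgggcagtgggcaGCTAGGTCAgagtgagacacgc
Nfe2l2, called lower, chr2:75704614-75704913, minus strand: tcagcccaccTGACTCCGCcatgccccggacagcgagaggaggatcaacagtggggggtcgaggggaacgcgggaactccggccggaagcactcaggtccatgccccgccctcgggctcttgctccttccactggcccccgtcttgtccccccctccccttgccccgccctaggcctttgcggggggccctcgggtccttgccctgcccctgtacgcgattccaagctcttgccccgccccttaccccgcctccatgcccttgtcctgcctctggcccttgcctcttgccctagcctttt
The core TGACNNNGC was matched in 4 of the 7 genes and in 12.4% of all 32851 windows, or 6.38% on the strand of the gene alone, where 1 of the 7 genes had it. *Nfe2l2* carried it on its own strand at −240, and *Gclm* at −134, *Txnrd1* at −92 and *Srxn1* at 28 carried it on the other strand. Of these 4 genes, *Gclm* and *Txnrd1* were called higher and *Srxn1* and *Nfe2l2* lower. The 4 of 7 counts genes and the 12.4% counts windows, so they are not like for like. *Txnrd1* matched only in the second of its 3 windows. *Srxn1* alone among the 7 held the AP-1 motif, on its own strand at −102 and −45, which 5.2% of all windows held on either strand. At −45 the letters continue as TGAGTCAGC, which differs from TGACNNNGC only in G for C after TGA. That stretch was not counted as a match to the core. TGATGNAAT was found in 0 of the 7 genes and 0.965% of all windows, and the shorter TGATGNAA was found in *Slc7a11*, once on each strand at −66 and −47, and in 3.97% of all windows. No motif was matched in the windows of *Nqo1* and *Keap1*. A match is a description of letters in a short window, and antioxidant response elements often lie farther from the start.

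The mRNA of the transcription factor was lower after Yme1l siRNA, and that of its inhibitor was not called. *Nfe2l2* (chromosome 2, 75675513 to 75704641, minus strand, GRCm38) held 108, 106 and 103 CPM in the Scr cultures and 80.5, 73.1 and 81.6 CPM after Yme1l siRNA. Its mRNA was thus lower in all 3 depleted cultures, with the mean falling from 106 ± 2.54 to 78.4 ± 4.62 CPM (SD, n = 3), or 25.8% lower. The log2 fold change was −0.43 (SE 0.07, adjusted p = 0.000979). *Keap1* (chromosome 9, 21229730 to 21239361, minus strand), the adaptor that targets NRF2 for degradation, held 50.8, 50.3 and 46.3 CPM in Scr and 50.8, 49.0 and 55.0 CPM after Yme1l siRNA. The groups overlapped, and the log2 fold change of 0.07 (SE 0.07, adjusted p = 0.425) had a 95% interval of the fold from 0.937 to 1.18. The antisense gene *Gm16754* shares 510 exon bases with *Keap1* but had only 11 to 22 counts in a library. Within each library, the ratio of *Keap1* to *Nfe2l2* counts does not depend on library scaling. It was 0.471, 0.474 and 0.45 in Scr and 0.631, 0.67 and 0.674 after Yme1l siRNA, 1.42-fold higher with no overlap of cultures (exact permutation p = 0.1).

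The largest increases of the 10 genes were those of *Slc7a11* and *Gclm*, which serve glutathione supply. Cystine enters cells through system xc-, whose transporter subunit is encoded by *Slc7a11*, and cysteine and glutamate are then joined by glutamate-cysteine ligase, made of the catalytic subunit *Gclc* and the modifier subunit *Gclm*. *Slc7a11* (chromosome 3, 49892526 to 50443614, minus strand) held 13.9, 16.0 and 17.1 CPM in Scr and 63.4, 41.4 and 55.3 CPM after Yme1l siRNA. Even the lowest depleted culture was above the highest Scr culture, and the mean rose from 15.7 ± 1.60 to 53.4 ± 11.1 CPM (SD, n = 3), or 3.40-fold. The log2 fold change was 1.77 (SE 0.15, adjusted p = 4.08e-05). *Slc3a2*, the heavy chain that *Slc7a11* shares with other amino acid transporters, was also higher, from 217, 209 and 241 CPM to 334, 322 and 310 CPM (log2 fold change 0.53, SE 0.08, adjusted p = 0.000491). The ratio of *Slc7a11* to *Slc3a2* counts went from 0.0644, 0.0765 and 0.0708 to 0.19, 0.129 and 0.178, which is 2.32-fold higher with no overlap (exact permutation p = 0.1). The counts of the transporter subunit thus stood higher relative to its partner in all 3 depleted cultures.

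*Gclm* (chromosome 3, 122245557 to 122270732, plus strand) held 53.0, 43.0 and 42.4 CPM in Scr and 80.3, 140 and 118 CPM after Yme1l siRNA. The depleted cultures were all higher but differed among themselves, the highest being 1.75 times the lowest. The mean rose 2.44-fold, from 46.1 ± 5.97 to 113 ± 30.3 CPM (SD, n = 3), with a log2 fold change of 1.29 (SE 0.19, adjusted p = 0.000536). A transcript of the other strand, *Gm17494*, shares 296 exon bases with *Gclm* and had 6 to 21 counts, and the pseudogene *Gm6061* shares 244 exon bases on the same strand. *Gclc* (chromosome 9, 77754535 to 77794485, plus strand) held 54.0, 58.1 and 66.8 CPM in Scr and 76.2, 76.5 and 74.4 CPM after Yme1l siRNA. The fold of the means was 1.27 for this catalytic subunit, and its depleted cultures lay close together (log2 fold change 0.34, SE 0.09, adjusted p = 0.00801). The ratio of *Gclm* to *Gclc* counts moved from 0.982, 0.74 and 0.635 to 1.05, 1.83 and 1.58, 1.88-fold higher (exact permutation p = 0.1). The first culture of each group came closest to the other group in this ratio.

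*Gss*, the synthetase that completes glutathione by adding glycine, went the opposite way. It held 57.5, 60.6 and 56.8 CPM in Scr and 27.6, 24.3 and 31.7 CPM after Yme1l siRNA, so no culture overlapped (log2 fold change −1.07, SE 0.10, adjusted p = 4.82e-05). Exons of *Gss* (chromosome 2, 155563181 to 155592810, minus strand) share 395 bases with *Acss2* and further bases with antisense genes on the other strand, and how the counting treated strand is not given in the sources used here. The step that starts glutathione synthesis and the step that ends it therefore differed in direction at the mRNA level.

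Glutathione and thioredoxin are kept reduced by a pair of related flavoenzymes that draw on NADPH. *Gsr* (chromosome 8, 33652523 to 33698163, plus strand), glutathione reductase, held 37.1, 40.4 and 37.5 CPM in Scr and 63.3, 65.5 and 65.0 CPM after Yme1l siRNA. Cultures of a group were nearly level, and the mean rose 1.69-fold, from 38.3 ± 1.78 to 64.6 ± 1.16 CPM (SD, n = 3). Its log2 fold change was 0.75 (SE 0.06, adjusted p = 3.46e-05), the smallest adjusted p of the 10 genes. *Txnrd1* (chromosome 10, 82833951 to 82897712, plus strand), the cytosolic thioredoxin reductase, held 263, 268 and 266 CPM in Scr and 393, 348 and 400 CPM after Yme1l siRNA. It was higher in all 3 depleted cultures, 1.43-fold in the mean, with a log2 fold change of 0.52 (SE 0.07, adjusted p = 0.000486). The ratio of *Gsr* to *Txnrd1* counts went from 0.141, 0.15 and 0.141 to 0.161, 0.188 and 0.162, or 1.18-fold higher (exact permutation p = 0.1). *Txnrd2*, the mitochondrial thioredoxin reductase, had 4, 2 and 7 counts in Scr and 1, 4 and 60 counts after Yme1l siRNA, too few to be tested, and no ratio to *Txnrd1* can be read from them.

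Like the genes called higher, *Nqo1* and *Srxn1*, both called lower, are targets of NRF2. *Nqo1* (chromosome 8, 107388225 to 107403206, minus strand) encodes a quinone reductase much used as a reporter of NRF2 activity. It held 30.4, 34.8 and 36.9 CPM in Scr and 16.4, 17.8 and 19.7 CPM after Yme1l siRNA. All 3 depleted cultures were lower, and the mean fell from 34.0 ± 3.33 to 17.9 ± 1.68 CPM (SD, n = 3), or by 47.3%. The log2 fold change was −0.92 (SE 0.10, adjusted p = 0.000127). *Srxn1* (chromosome 2, 152105516 to 152111376, plus strand), sulfiredoxin, which reactivates overoxidized peroxiredoxins, held 449, 468 and 434 CPM in Scr and 287, 245 and 390 CPM after Yme1l siRNA. It too was lower in every depleted culture, though the third stood closer to Scr than to the other depleted cultures. The mean fell from 451 ± 17.3 to 307 ± 74.6 CPM (SD, n = 3), with a log2 fold change of −0.55 (SE 0.15, adjusted p = 0.0129). Without the first Yme1l siRNA culture the adjusted p of *Srxn1* was 0.0515, past the threshold, at a log2 fold change of −0.50.

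*Hmox1* (chromosome 8, 75093621 to 75100589, plus strand), heme oxygenase, which opens the heme ring and releases its iron, held 82.7, 86.6 and 63.0 CPM in Scr and 84.0, 86.4 and 75.7 CPM after Yme1l siRNA. The ranges overlapped and the third Scr culture was the lowest of all 6. The log2 fold change of 0.08 (SE 0.12, adjusted p = 0.572) had a 95% interval of the fold from 0.877 to 1.28, and without that Scr culture it was −0.05.

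The spread between depleted cultures was uneven over the genes. On the log2 scale the SD of CPM after Yme1l siRNA was 0.41 for *Gclm*, 0.34 for *Srxn1* and 0.31 for *Slc7a11*, against 0.02 for *Gclc* and 0.03 for *Gsr*. No single depleted culture led in all genes: the second was the lowest of the 3 in 5 genes, *Slc7a11*, *Txnrd1* and *Srxn1* among them, and the highest in 4, *Gclm* and *Gsr* among them. Among the Scr cultures the highest was at most 1.37 times the lowest, in *Hmox1*, and 1.02 times in *Txnrd1*.

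Levels per length place the genes beside each other. Expressed as CPM per kilobase of the union of annotated exons (RPKM), *Srxn1* was the most abundant of the 10 in both groups, at 160 RPKM in Scr and 109 RPKM after Yme1l siRNA. In Scr it was followed by *Hmox1* at 44.2, *Txnrd1* at 37.5, *Nfe2l2* at 27.8 and *Nqo1* at 21.9 RPKM, then by *Gclc* at 15.8, *Gsr* at 13.9, *Keap1* at 10.5, *Gclm* at 7.33 and *Slc7a11* at 1.13 RPKM. Cultures of neighbouring genes overlapped only between *Hmox1* and *Txnrd1* and between *Gclc* and *Gsr*. After Yme1l siRNA the order was *Srxn1*, *Txnrd1* at 53.7, *Hmox1* at 46.8, *Gsr* at 23.4, *Nfe2l2* at 20.7, *Gclc* at 20.1, *Gclm* at 17.9, *Nqo1* at 11.6, *Keap1* and *Slc7a11* at 3.83 RPKM. There the neighbours *Txnrd1* and *Hmox1*, *Nfe2l2* and *Gclc*, *Gclc* and *Gclm*, and *Nqo1* and *Keap1* overlapped. *Nqo1* thus stood above *Gclm* and *Gsr* in Scr and below both after depletion. *Slc7a11* was last in both groups on this scale, which divides by 13.9 kb of exons from all its annotated transcripts.

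**Figure D3:**
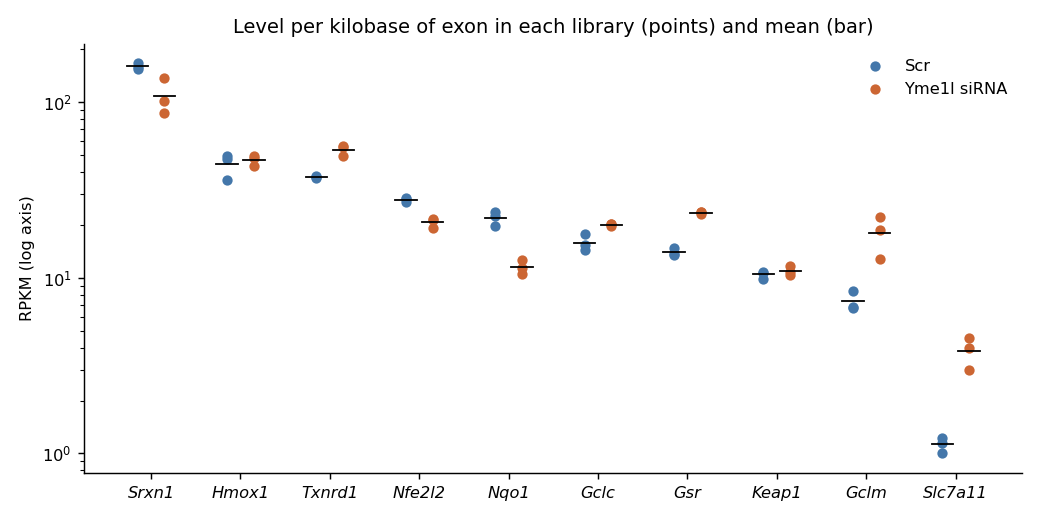
Level per length (RPKM, logarithmic axis) of the 10 genes in order of their Scr mean, with points for the 3 Scr and the 3 Yme1l siRNA cultures. *Srxn1* is highest and *Slc7a11* lowest in both groups, and *Nqo1* falls from above to below *Gclm* and *Gsr*.

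**Figure D4:**
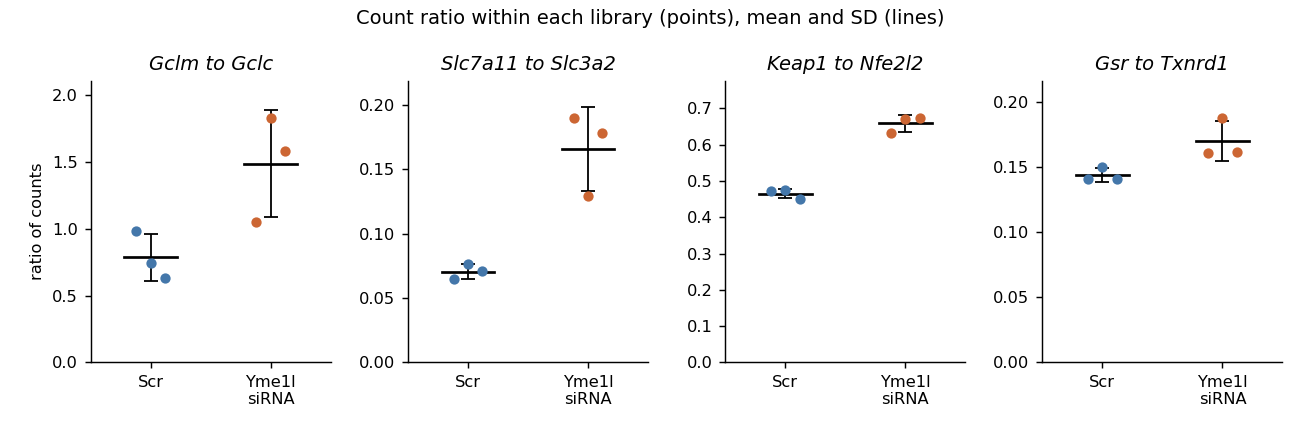
Ratios of counts between partner genes within each of the 6 cultures (points) on linear axes from 0, with the mean and SD of the 3 cultures of a group (lines). The Yme1l siRNA cultures lie above the Scr cultures in all 4 panels, and in the panel of *Gclm* to *Gclc* the first cultures, at 0.982 and 1.05, lie closest.

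Other genes of the pathway were read from 9 lists of 172 genes in all, of which 159 were tested. Of these, 43 were called higher, a share just under the 28.4% of all loci, and 58 lower (36.5%, against 29.6%), with a median log2 fold change of −0.04. The list of further NRF2 targets had 21 of its 29 genes tested, and 2 were called higher (9.52%) and 12 lower (57.1%), with a median of −0.28 against 0.01 over all loci. *Osgin1*, an NRF2-induced growth inhibitor, rose from 10.6 to 28.4 CPM (log2 fold change 1.42, SE 0.10, adjusted p = 1.63e-05). *Akr1b8*, an aldo-keto reductase, fell from 121 to 80.8 CPM (−0.58, SE 0.07, adjusted p = 0.000168), and *Abhd4*, a lipid hydrolase, changed by −0.67 (SE 0.08, adjusted p = 0.000172). *Nqo1* and *Srxn1* thus moved in the direction that most called genes of this list did, and *Slc7a11*, *Gclm* and *Gsr* did not.

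Among 17 regulators of KEAP1 and NRF2, all tested, 5 were called higher (29.4%, near the 28.4% of all loci) and 3 lower (17.6%, against 29.6%), with a median of 0.10. *Maff*, a small MAF protein and so a dimer partner of NRF2, rose from 6.23, 5.87 and 4.57 CPM to 37.7, 46.6 and 28.3 CPM (log2 fold change 2.76, SE 0.20, adjusted p = 1.75e-05). Its rise was larger than that of any of the 10 genes. *Pgam5*, a mitochondrial phosphatase that binds KEAP1, rose from 38.3 to 72.6 CPM (0.92, SE 0.07, adjusted p = 2.72e-05), and the coactivator *Crebbp* changed by 0.48 (SE 0.08, adjusted p = 0.001). The other small MAF genes of the list and a repressor that competes for the same elements were looked up after their values were seen. *Mafk*, at a mean of 41.1 CPM in Scr, changed by 0.55 (adjusted p = 0.00369). *Mafg*, whose locus also names *Sirt7*, had a mean of 132 CPM in Scr, against 5.56 CPM for *Maff*. It was not called (0.14, adjusted p = 0.181), and its groups overlapped. *Bach1* changed by −0.18 (adjusted p = 0.0649), which was not a call. The 3 lower calls of this list were lost without the first Yme1l siRNA culture, and without the third they were 5.

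In glutathione synthesis and turnover, 14 of 15 genes were tested, with a median of 0.04. Of these, 6 were called higher (42.9%, against 28.4% of all loci) and 3 lower (21.4%, against 29.6%). Besides *Slc3a2* and *Gss*, the list's smallest adjusted p belonged to *Cth*, which makes cysteine from cystathionine and rose to 40.7 CPM (log2 fold change 1.03, SE 0.14, adjusted p = 0.000442). *Chac1*, which degrades glutathione and was picked after its values were seen, rose from 32.7 to 70.4 CPM (1.11, SE 0.18, adjusted p = 0.000872). Of the glutathione-dependent enzymes, 29 of 30 were tested, 6 were called higher (20.7%, against 28.4% of all loci) and 13 lower (44.8%, against 29.6%), and the median was −0.26. *Mgst3*, a microsomal transferase, fell from 28.0 to 11.4 CPM (−1.30, SE 0.09, adjusted p = 1.89e-05) and *Gsto1*, an omega-class transferase, rose from 79.0 to 173 CPM (1.13, SE 0.08, adjusted p = 1.37e-05). *Gstm1* fell from 90.9 to 52.7 CPM (−0.79, SE 0.07, adjusted p = 3.81e-05), a value that is uncertain because its close paralogs can share reads. Of the 6 higher calls, *Gstk1*, *Gstm6* and *Mgst1* had only 1 to 67 counts in a library. Of the 13 lower calls, *Gstp1* had 12 to 108 counts and *Gstt2* 50 to 95, and the *Gstt3* locus also names *Ddt* and *Gm20441*. With the first Scr culture left out, or with a mean of at least 50 counts required, 3 genes of this list were called higher, and at a threshold of 0.01 there were 2.

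In the thioredoxin and peroxiredoxin system, to which *Txnrd1* and *Srxn1* belong, 20 of 21 genes were tested, 2 were called higher and 9 lower (45.0%, against 29.6% of all loci), and the median was −0.14. *Msrb3*, a methionine sulfoxide reductase, fell from 118 to 44.2 CPM (−1.42, SE 0.09, adjusted p = 1e-05), *Sesn3*, a sestrin, from 287 to 95.9 CPM (−1.58, SE 0.10, adjusted p = 1.37e-05), and *Txnip*, which binds and inhibits thioredoxin, from 257 to 82.5 CPM (−1.64, SE 0.11, adjusted p = 1.45e-05). The 2 higher calls, named after their values were seen, were *Msra* (0.75, adjusted p = 0.00112) and the thioredoxin *Txn2* (0.43, adjusted p = 0.00222). The thioredoxin *Txn1* was not called (0.19, adjusted p = 0.0672), though its groups did not overlap. *Txnrd1* and *Txn2* thus rose while most called genes of the list, an inhibitor of thioredoxin among them, fell. With upper-quartile scale factors 5 genes of this list were called higher in place of 2. Superoxide and peroxide removal had 7 genes, all tested, with 2 higher and 2 lower (each 28.6%, near the shares of all loci) and a median of 0.17. *Sod2*, the mitochondrial superoxide dismutase, rose from 51.5 to 63.2 CPM (0.30, SE 0.07, adjusted p = 0.00592). *Pxdn*, a peroxidase of the extracellular matrix, changed by −0.59 (SE 0.10, adjusted p = 0.00112) and *Ccs*, the copper chaperone of cytosolic superoxide dismutase, by −0.51 (SE 0.10, adjusted p = 0.00334). With any single Scr culture or the first Yme1l siRNA culture left out, 1 gene of this list was called higher in place of 2.

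NADPH feeds both *Gsr* and *Txnrd1*. Of 18 tested genes of NADPH supply (19 listed) 4 were called higher (22.2%, against 28.4% of all loci). A further 8 were called lower (44.4%, against 29.6%), and the median was −0.10. *Idh1*, the cytosolic NADPH-forming isocitrate dehydrogenase, fell from 92.6 to 32.1 CPM (−1.53, SE 0.09, adjusted p = 9.19e-06), *Aldh1l1*, a folate enzyme that yields NADPH, by 1.44 on the log2 scale (SE 0.14, adjusted p = 5.96e-05), and *Tkt*, transketolase, which acts in the pentose phosphate pathway without forming NADPH itself, from 414 to 272 CPM (−0.61, SE 0.07, adjusted p = 0.000134). *G6pdx*, which starts the pentose phosphate pathway and was picked after its values were seen, fell from 175 to 98.2 CPM (−0.83, SE 0.12, adjusted p = 0.000416). The 4 higher calls of the list, named after their values were seen, were *Mthfd1* (0.97, adjusted p = 0.000145) and *Mthfd2* (0.72, adjusted p = 0.00049), both of folate metabolism, *Me2* (0.50, adjusted p = 0.00251), a mitochondrial malic enzyme, and *Taldo1* (0.27, adjusted p = 0.0153), of the pentose phosphate pathway. *Gsr* and *Txnrd1* thus rose while more genes of this list were called lower (8) than higher (4).

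Heme and iron handling, the setting of *Hmox1*, had 14 genes, all tested. Of these, 5 were called higher (35.7%, against 28.4% of all loci) and 3 lower (21.4%, against 29.6%), with a median of 0.08. *Tfrc*, the transferrin receptor that brings iron in, rose from 114 to 364 CPM (1.68, SE 0.09, adjusted p = 7.21e-06). *Slc48a1*, a heme transporter, rose from 321 to 694 CPM (1.12, SE 0.09, adjusted p = 2.39e-05), and *Slc40a1*, the iron exporter ferroportin, fell from 4.97 to 0.621 CPM (−2.99, SE 0.27, adjusted p = 4.52e-05). *Flvcr1*, a heme exporter picked after its values were seen, was higher (0.51, adjusted p = 0.00155). The exporter of heme and the exporter of iron named here thus moved in opposite directions. The ferritin subunits, also NRF2 targets and also picked after their values were seen, were not called either (*Fth1* −0.20, adjusted p = 0.0627, and *Ftl1* 0.03, adjusted p = 0.791).

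Targets of ATF4 outside the 10 genes were compared because *Slc7a11* belongs to both programmes. The 9 lists share no gene, so any ATF4 target placed in another list is missing from the counts below. Of 20 listed genes 19 were tested, 11 were called higher (57.9%, against 28.4% of all loci) and 5 lower (26.3%, against 29.6%), and the median of 0.41 was the highest of the 9 lists. *Psat1*, of serine synthesis, rose from 204 to 461 CPM (1.18, SE 0.11, adjusted p = 4.41e-05) and *Ppp1r15a*, which helps to end the integrated stress response, from 39.8 to 101 CPM (1.35, SE 0.16, adjusted p = 0.000186). *Ddit4*, an inhibitor of mTORC1 signalling, fell from 335 to 79.2 CPM (−2.08, SE 0.16, adjusted p = 2.63e-05). Without the second Scr culture 7 of these targets were called higher, and without the third Scr or the first Yme1l siRNA culture 3 were called lower. No list was tested as a set, and none of these counts says which factor acted on *Slc7a11*, *Gclm* or the other genes.

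**Figure D5:**
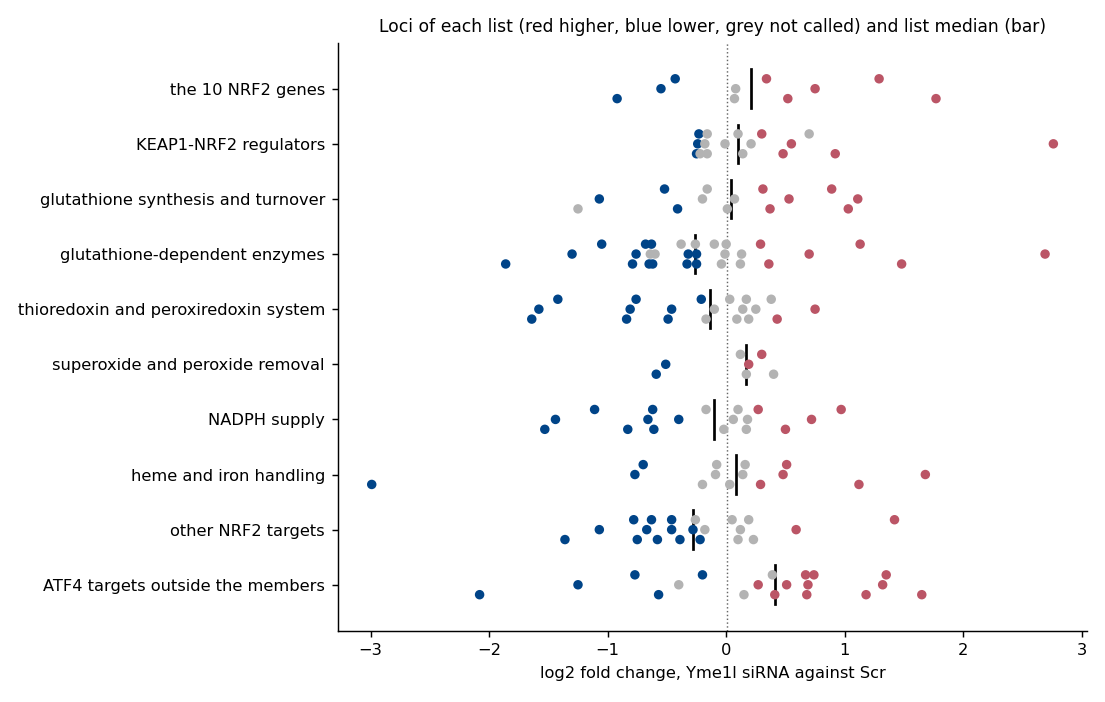
Log2 fold change of Yme1l siRNA over Scr for every tested gene of the 9 pathway lists and for the 10 genes themselves, with points for genes (red called higher, blue called lower, grey not called) and a bar for the median of each list. List medians run from −0.28 for further NRF2 targets to 0.41 for ATF4 targets, and the dotted line at 0.01 is the median of all loci tested.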

How the data were processed

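RNA was poly(A)-selected, made into stranded libraries and sequenced as pairs on a NovaSeq. The submitters' processing notes name HISAT2 2.0.4, StringTie 1.3.3, Cufflinks and Cuffdiff 2.2.1, and the mouse build is GRCm38. The authors deposited 1 table of raw counts per locus for the 6 libraries, read here without change. The counting program, its strand setting and its treatment of reads that map to several places are not given in the sources used here, and 635 loci join several gene names, among them 6 of the tested pathway genes. A table of the authors' own comparison (group levels, fold changes, test statistics, p and q values) was not used. There were 0 columns without a sample.

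Counts were fitted with edgeR 4.0.16 in R 4.3.3 (TMM factors, filterByExpr with a minimum count of 10 and a total of 15, glmQLFit and glmQLFTest, biological coefficient of variation 0.131), with Benjamini-Hochberg adjustment over 14499 loci and a threshold of 0.05. The SE is the log2 fold change over the square root of F. CPM use the TMM-scaled totals, and totals of 37260605 to 45205207 counts limit the precision of low loci most. Gene positions and exon unions come from the GENCODE annotation of GRCm38, and promoters from RefSeq. Ratios were tested with two-sided exact permutation tests (5 ratios, all raw p, the smallest possible being 0.1). Scripts were checked on simulated data in which far fewer loci changed than were called here. That check therefore does not cover scaling or false calls under a change this broad. The 10 genes, the pathway lists and the tests were chosen with earlier results of these data known. The text names all 10 genes, *Yme1l1*, ratio partners and, in each list, the 3 called loci with the smallest adjusted p, and it says where a gene was picked after its values were seen. Alternatives were other scale factors, DESeq2 1.42.0, limma-voom (limma 3.58.1), other count filters, a threshold of 0.01, a replicate block, loci of mtDNA left out, each library left out, and for promoters the gene strand alone.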

Additional observations from a re-analysis of the deposited data

How the results depend on the processing

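Over the 14 alternative fits 5 of the 10 genes were called higher in each, and 3 lower in each except without the first Yme1l siRNA library, where they were 2 and *Srxn1* had a log2 fold change of −0.50 with adjusted p = 0.0515 (edgeR's quasi-likelihood test). With each library left out in turn *Srxn1* ranged from −0.76 to −0.41, and over all alternatives its adjusted p ranged from 0.000149 to 0.0515. At a threshold of 0.01 in place of 0.05, 5 were higher and 2 lower. *Hmox1* ranged from −0.05 to 0.17 and changed sign only without the third Scr library. Over all alternatives the ranges were −0.46 to −0.38 for *Nfe2l2*, 0.02 to 0.11 for *Keap1*, 1.11 to 1.48 for *Gclm*, 0.27 to 0.43 for *Gclc*, 1.63 to 1.93 for *Slc7a11*, 0.48 to 0.59 for *Txnrd1* and 0.72 to 0.79 for *Gsr*. The log2 ratio of *Txnrd1* to *Txnrd2* differed by −0.08 between groups and, with 1 library left out, by −1.44 to 1.53, turning positive without the second Scr library (0.31) or the third Yme1l siRNA library (1.53). The cause was not tested, but *Txnrd2* had 1 to 60 counts. The 3 lower calls among KEAP1-NRF2 regulators were also lost at 0.01, and the higher calls of the thioredoxin list, 2 in the report, were 4 with DESeq2 and with the replicate block and 5 with a filter on a mean of 50 counts. Changes with single libraries stand beside the lists. Deviations from the group mean correlated at 0.041, 0.116 and 0.192 between libraries with the same number. These values were not compared with those of libraries with different numbers, so whether a number marks a shared batch cannot be told. A fit with the replicate block called 4227 loci higher and 4460 lower, with 5 and 3 of the 10 genes.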
